A study of Danio rerio with 9 samples.

Results

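Interferon signalling genes and interferon-stimulated genes were examined in the RNA of Müller glia sorted from zebrafish retina before and after a light lesion. A list of 33 gene symbols was used, and a symbol became a member where the authors' annotated comparison table paired it with an Ensembl gene present in the deposited counts. This gave 13 members, out of 33737 genes in the count table. They were the signalling genes stat2 and tyk2, the interferon regulatory factor genes irf1b, irf2, irf2a, irf3, irf7, irf8 and irf9, the antiviral genes isg15 and isg20, and the class I antigen presentation genes b2m and mhc1uba. All 13 had enough counts to be tested. The other 20 symbols were absent from that table, which holds 15530 genes, 12581 of them with a symbol. A separate table of gene names led 17 of the 20 to a row of the counts, and these 17 are reported apart from the members. trim25, irf4a and mhc1uka could not be matched to a row and are not analysed here.

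Interferons are secreted proteins that cells release when they detect viral nucleic acid or other danger. They bind receptors whose attached kinases, among them Jak1 and Tyk2, activate Stat transcription factors, Stat2 among them. With Irf9, the DNA-binding partner, Stat proteins form a complex that switches on a broad set of antiviral and antigen presentation genes, including their own. Müller glia are radial glia that span the retina and, in zebrafish, divide after injury to give new neurons.

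Cells were sorted by fluorescence from adults of 8 to 11 months of the line Tg(gfap:EGFP)mi2002, which all groups share and in which a glial gfap promoter drives green fluorescent protein. Fish were unlesioned controls, called 0 hours post lesion (hpl), or swam freely under light above 120000 lux for 30 min and were taken at 8 or 16 hpl. Each group had 3 libraries, with 11714633 (16 hpl replicate 3) to 26608088 (8 hpl replicate 1) expected counts per library. Whether each library came from its own fish or pool is not in the labels. The p-values therefore set group differences against the spread among these libraries alone, and that spread may be technical. No unlesioned fish collected at the later hours are among the samples, so the lesion, the bright light and the hour when fish were taken cannot be told apart.

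The sorted cells carried markers of Müller glia and also much photoreceptor RNA. rlbp1a, for a retinoid-binding protein of these glia, ranged from 134 to 436 CPM (counts scaled to library size by TMM) over the 9 libraries and gfap from 60.2 to 168 CPM. These markers were not stable. At 16 hpl every library was above every 0 hpl library for 4 of 8 glial markers, gfap among them, and below for 2, rlbp1a among them. These are 50% and 25%, beside 10.8% and 10.4% of all genes tested. By the edgeR test described below 1 of the 8 rose at 16 hpl (12.5%, beside 1.45%) and 0 fell. 9 rod markers summed to 72000 to 122000, 96500 to 101000 and 44500 to 76000 CPM at 0, 8 and 16 hpl, the lowest in 16 hpl replicate 2. At 16 hpl 8 of the 9 had negative log2 fold changes, with a median of −0.5, and 0 were called. By then 2 were separated downward (22.2%, beside 10.4% of all genes) and 0 upward. Of 10 cone markers 5 fell at 8 hpl and 4 at 16 hpl by the edgeR test described below, beside 0.931% and 0.639% of all genes tested. The 10 summed to 9620 to 12000, 3010 to 5660 and 4230 to 7840 CPM at 0, 8 and 16 hpl. The part of these changes in the results was not tested. In such bulk samples fewer cells of a type and less RNA per cell cannot be told apart. On the first principal component, with 30.7% of the variance, 8 hpl replicates 1 and 3 and 16 hpl replicate 2 lay at 53.3 to 92.2 and the other 6 libraries at −43.3 to −15.1. The clock gene per1b parted the lesioned libraries in the same way, at 181 to 369 CPM in those 3 and 1210 to 1490 CPM in the other 3. Results below are also given without these 3 libraries that stand apart, a choice made after seeing the data, where that changes them. 8 hpl is then replicate 2 alone, so its values are those of 1 library and are given with no p, and 16 hpl has replicates 1 and 3.

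One member, irf9, passed the test against 0 hpl at both times. At 8 hpl 1 of 13 members, irf9, rose and 0 fell, beside 1.9% of all 19875 tested genes that rose and 0.931% that fell (edgeR quasi-likelihood test, Benjamini-Hochberg adjusted p under 0.05, two-sided). At 16 hpl 1 of 13 rose, again irf9, and 0 fell, beside 1.45% and 0.639% of all genes. By an unadjusted p under 0.05, 1 member was higher and 0 lower at 8 hpl, where 9.3% of all genes were higher and 6.9% lower. At 16 hpl 8 members were higher and 0 lower by that rule, where 8.71% and 6.07% of all genes were. With DESeq2 the count at 16 hpl was 4 of 13, adding irf2a, b2m and mhc1uba, beside 3.65% of the genes to which it gave an adjusted p. Both comparisons share the 0 hpl libraries.

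More members stood higher at 16 hpl than were called, though not across the whole list. The median log2 fold change of the 13 members was 0.25 at 8 hpl and 0.94 at 16 hpl, beside 0.02 and 0.03 over all genes tested. At each time 9 of the 13 values were positive and 4 negative. Among the 7 regulatory factor genes 3 were positive and 4 negative at 16 hpl, with a median of −0.09. In 3 of 13 members (23.1%), irf2a, irf9 and b2m, every 8 hpl library was above every 0 hpl library, beside 13.9% of all genes, and in 1, irf1b, every one was below, beside 12.9%. At 16 hpl 7 of 13 (53.8%) were separated upward, beside 10.8% of all genes and 11.4% of the genes in the authors' table, and 0 downward, beside 10.4% of all genes. These 7 were stat2, irf2, irf2a, irf9, b2m, mhc1uba and tyk2. The filter kept irf2 only with its lesioned libraries counted. The median of the 13 members at 16 hpl was 0.6 without 16 hpl replicate 2 and 0.61 without the 3 libraries that stand apart. At 8 hpl it was 0.08 without 0 hpl replicate 3, 0.1 without 8 hpl replicate 3 and 0.39 without 0 hpl replicate 2.

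**Figure D1:**
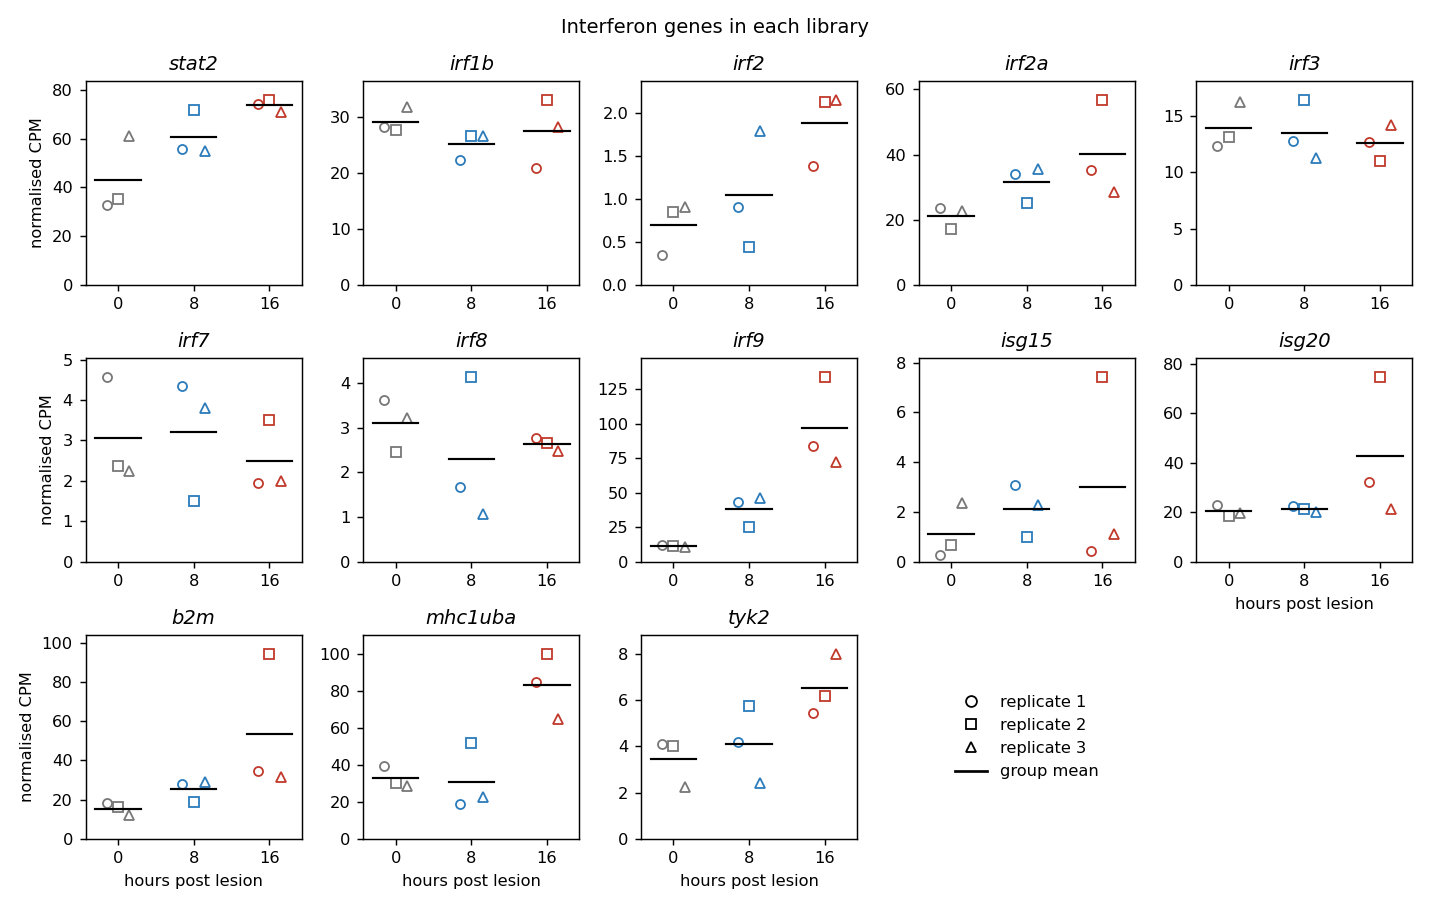
Normalised CPM (vertical axis, linear, from 0) of the 13 interferon genes at 0, 8 and 16 hours post lesion. Each symbol is 1 library, its shape gives the replicate number, and the bar is the mean of 3 libraries. irf9 lies at 10.8 to 12.1 CPM at 0 hpl and at 72.1 to 134 CPM at 16 hpl, and for b2m, isg20 and isg15 16 hpl replicate 2 stands above the others.

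irf9 had the largest log2 fold change of the 13 members at both times. The gene (ENSDARG00000016457) encodes the factor that brings the Stat complex to DNA. Its level was 12.1, 11.6 and 10.8 CPM in 0 hpl replicates 1, 2 and 3, 43.5, 25.0 and 46.2 CPM at 8 hpl, and 84.1, 134 and 72.1 CPM at 16 hpl. The 3 groups did not overlap in any direction, and 8 hpl replicate 2 was the lowest of the 8 hpl libraries. Its level differed by 1.73 ± 0.29 (log2 fold change with SE; adjusted p = 0.0154) at 8 hpl and 3.08 ± 0.3 (adjusted p = 0.00112) at 16 hpl, or 3.33-fold and 8.43-fold. At 16 hpl the call held in all 9 fits without 1 library, with adjusted p up to 0.0162. At 8 hpl it ended in 5 of the 9, those lacking a 0 hpl library or replicate 1 or 3 of 8 hpl (adjusted p 0.0697 to 0.0861). Without the 3 libraries that stand apart the log2 fold change was 1.12, which sets 8 hpl replicate 2 alone against 0 hpl.

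stat2 and tyk2 did not pass the test. stat2, for a Stat protein that binds Irf9, stood at 32.7, 35.4 and 61.1 CPM at 0 hpl, 55.6, 71.6 and 54.8 CPM at 8 hpl and 74.1, 76.1 and 70.8 CPM at 16 hpl. The 16 hpl libraries were all above those of 0 hpl, while 0 hpl replicate 3 lay among the 8 hpl libraries. It differed from 0 hpl by log2 values of 0.49 (adjusted p = 0.354) and 0.77 (adjusted p = 0.148). tyk2, for a kinase bound to interferon receptors, was low, at 2.25 to 4.12 CPM at 0 hpl and 5.45 to 8.01 CPM at 16 hpl, a log2 fold change of 0.91 (adjusted p = 0.288).

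**Figure D2:**
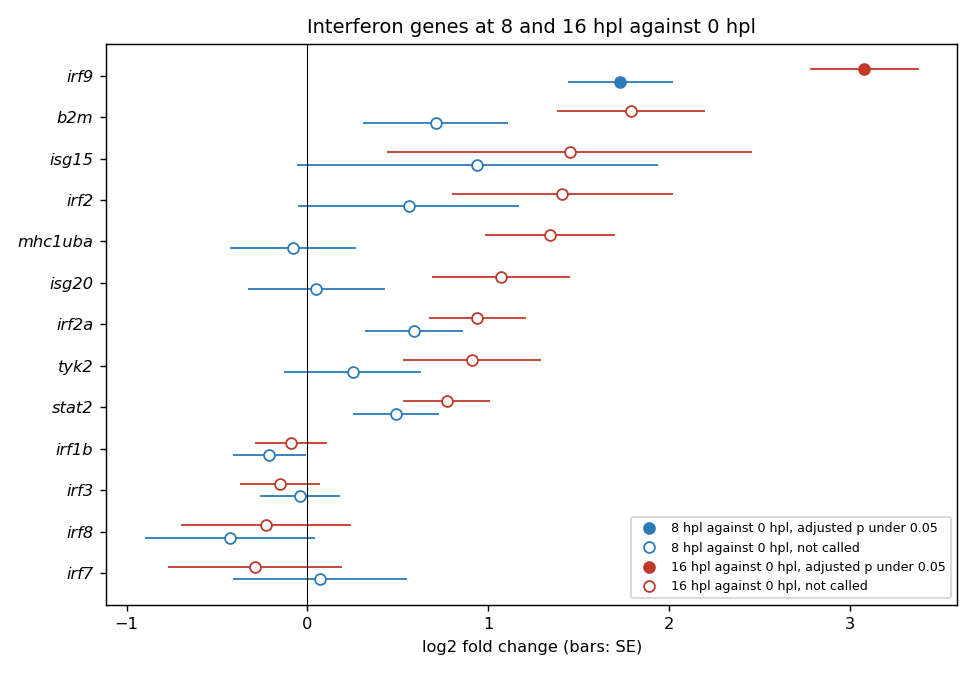
Log2 fold change (horizontal axis) with its standard error for the 13 interferon genes, ordered by the value at 16 hpl. Blue is 8 hpl and red 16 hpl, both against 0 hpl, and filled points passed an adjusted p of 0.05. The only filled points are those of irf9 (1.73 and 3.08).

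Apart from irf9, 0 of 6 regulatory factor genes were called by edgeR in either comparison with 0 hpl. An unadjusted p under 0.05 was reached by 0 of these 6 at 8 hpl. At 16 hpl it was reached by 2, irf2 and irf2a, both higher, beside 8.71% of all genes. DESeq2 called irf2a at 16 hpl. irf2a, one of a pair of zebrafish genes for Irf2, which in mammals opposes Irf1, stood at 23.4, 17.0 and 22.6 CPM at 0 hpl, 34.1, 25.0 and 35.5 CPM at 8 hpl and 35.3, 56.9 and 28.4 CPM at 16 hpl. Both lesioned groups were above 0 hpl without overlap, and 16 hpl replicate 2 was the highest. The log2 fold changes were 0.59 ± 0.27 (adjusted p = 0.323) and 0.94 ± 0.27 (adjusted p = 0.119). The other Irf2 gene, listed as irf2, was near the detection limit, with 6, 19 and 17 counts in the 0 hpl libraries and 32, 45 and 27 at 16 hpl. On the CPM scale these were 0.344, 0.849 and 0.909 against 1.38, 2.13 and 2.16, with 0.909, 0.442 and 1.79 at 8 hpl. Its groups at 0 and 16 hpl did not overlap, and the log2 fold change was 1.41 ± 0.61 (adjusted p = 0.313). The filter kept irf2 only with its lesioned libraries counted, so this separation is not read as a result.

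irf1b, one of the genes for Irf1, an early interferon gamma target in mammals, had one of the highest levels of the list and did not follow irf9. Its CPM were 28.2, 27.7 and 31.8 at 0 hpl, 22.4, 26.7 and 26.7 at 8 hpl and 21.0, 33.2 and 28.3 at 16 hpl. The 8 hpl libraries lay just below those of 0 hpl, and the 16 hpl libraries spanned both. Log2 fold changes were −0.21 ± 0.2 (adjusted p = 0.687) and −0.09 ± 0.2 (adjusted p = 0.9). irf3 and irf7, whose proteins switch on interferon genes after virus sensing, differed from 0 hpl by −0.15 and −0.29 (log2) at 16 hpl (adjusted p = 0.836 and 0.852). irf3 stood at 11.0 to 16.5 CPM and irf7 at 1.49 to 4.58 CPM over the 9 libraries. irf8, needed for macrophage and microglia development in zebrafish, stood at 2.46 to 3.61 CPM at 0 hpl and 2.48 to 2.77 CPM at 16 hpl, while the 8 hpl libraries gave 1.67, 4.14 and 1.07 CPM, the highest in replicate 2.

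Antiviral effector genes, the usual readout of an interferon response, were mostly low. isg15, for a ubiquitin-like protein attached to other proteins, had 5, 15 and 44 counts in the 0 hpl libraries, 81, 25 and 51 at 8 hpl and 10, 157 and 14 at 16 hpl. The groups overlapped, and 16 hpl replicate 2 alone carried most of the 16 hpl counts. The log2 fold change at 16 hpl was 1.45 ± 1.01 (adjusted p = 0.574), and −0.56 (adjusted p = 0.814) without 16 hpl replicate 2. isg20, for an exonuclease that degrades RNA, was better expressed, at 18.5 to 22.8 CPM at 0 hpl and 19.9 to 22.4 CPM at 8 hpl. At 16 hpl it stood at 32.0, 74.7 and 21.3 CPM, with replicate 3 inside the 0 hpl range, a log2 fold change of 1.07 ± 0.38 (adjusted p = 0.209).

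The antiviral and sensing genes outside the authors' table were close to the floor. Of the 17 symbols matched through gene names, 8 stayed below the count filter, with at most 19 counts in any library. These were irf1a, irf4b, irf10, mxb, mxc, ifit8, ifit9 and ifit10. The other 9 were tested, and 0 passed at 8 or 16 hpl in edgeR or DESeq2. By an unadjusted p under 0.05, 2 and 3 of them were higher, beside 9.3% and 8.71% of all genes, and 0 were lower. The filter can keep a gene for the group where it is high, as with mxa, whose mean was 0.0641 CPM at 0 hpl and 0.684 CPM at 8 hpl. The filter thus partly sets the counts of these 9 by direction, which are not read as a result. No median over the 9 is given. Mx, Ifit and class I genes have near-identical copies, among which reads cannot always be assigned with certainty. Expected counts were fractional in some libraries for mxa, mxb and mxc, and whole in every library for mhc1uba, ifit8, ifit9 and ifit10.

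Single genes among these 9 had few counts in every group. rsad2, for the antiviral enzyme viperin, had 6, 23 and 12 counts at 0 hpl, 45, 54 and 27 at 8 hpl and 53, 18 and 37 at 16 hpl, or log2 differences of 1.32 at 8 hpl and 1.57 at 16 hpl (adjusted p = 0.297 and 0.236). mxa, for a dynamin-like antiviral GTPase, had 0, 3 and 1.09 expected counts at 0 hpl and 19.52, 5.79 and 24.15 at 8 hpl, but 16.58, 2 and 0 at 16 hpl. dhx58, for the RNA sensor regulator Lgp2, had 1, 0 and 17 counts at 0 hpl and 31, 19 and 36 at 16 hpl, a log2 fold change of 2.39 (adjusted p = 0.346). For rsad2 the 8 hpl libraries were above those of 0 hpl without overlap. The same held for mxa. The filter kept rsad2, mxa and dhx58 only with their lesioned libraries counted, so these separations are not read as a result. For dhx58 0 hpl replicate 3 lay within the 8 hpl range. At 16 hpl the libraries of rsad2 and of dhx58 overlapped those of 0 hpl on the CPM scale. ifih1, for the RNA sensor Mda5, had 4 to 21 counts at 0 hpl and 19 to 31 at 16 hpl (1.07, adjusted p = 0.502). irf5, mxe and pkz had at most 23, 21 and 18 counts in a library. Their log2 fold changes were −0.57, 1.2 and 0.54 at 8 hpl (adjusted p = 0.886, 0.783 and 0.864). At 16 hpl they were 0.26, 1.9 and 0.46 (adjusted p = 0.956, 0.646 and 0.901).

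**Figure D3:**
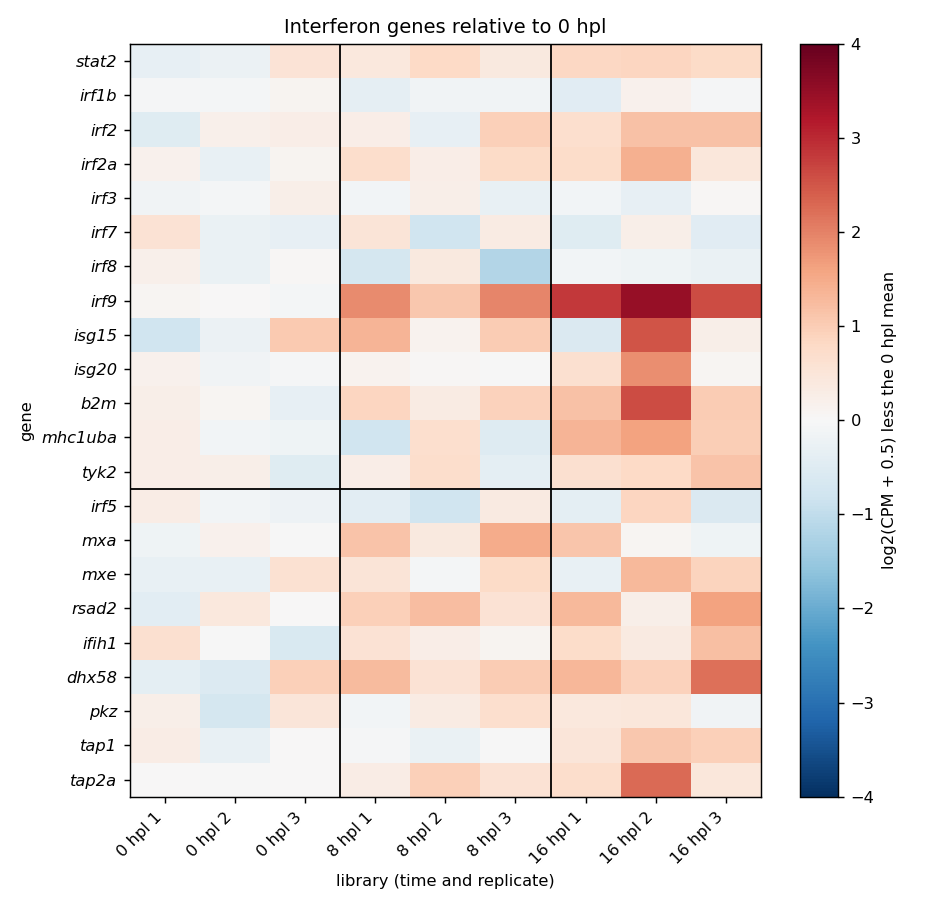
Log2(CPM + 0.5) of each library less the mean of the 0 hpl libraries, for the 13 members (upper block) and the 9 tested symbols outside the authors' table (lower block), in columns by time and replicate. irf9 is high in all 3 of the 16 hpl columns, whereas isg15, isg20, b2m and tap2a are highest in 16 hpl replicate 2.

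The class I antigen presentation members b2m and mhc1uba stood higher at 16 hpl without passing the test. b2m (ENSDARG00000053136), for a light chain of class I molecules, had 18.1, 16.0 and 12.1 CPM at 0 hpl, 27.9, 19.0 and 29.0 CPM at 8 hpl and 34.5, 94.3 and 31.3 CPM at 16 hpl. The 3 groups did not overlap, and 16 hpl replicate 2 was far above the other libraries. The log2 fold change at 16 hpl was 1.79 ± 0.41 (adjusted p = 0.0541), and at 8 hpl 0.71 ± 0.4 (adjusted p = 0.434). Without 16 hpl replicate 2 it was smaller, 1.09, and passed (adjusted p = 0.0427). It passed in 3 of the 9 fits without 1 library. Without the 3 libraries that stand apart, chosen after seeing the data, it was 1.1.

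mhc1uba (ENSDARG00000075963), for a class I heavy chain, differed in its course. It had 39.5, 30.2 and 28.7 CPM at 0 hpl, 18.6, 51.5 and 22.7 CPM at 8 hpl and 84.5, 100 and 64.9 CPM at 16 hpl. At 8 hpl the libraries fell on both sides of 0 hpl, replicates 1 and 3 below and replicate 2 above, while all 3 at 16 hpl were above every other library. The log2 fold change was −0.08 ± 0.35 (adjusted p = 0.948) at 8 hpl and 1.34 ± 0.36 (adjusted p = 0.0928) at 16 hpl. The value at 16 hpl passed in 1 of the 9 fits without 1 library. Without the 3 libraries that stand apart, chosen after seeing the data, it was 1.19. At 8 hpl, for replicate 2 alone, the value was then 0.65. In zebrafish, class I genes differ between haplotypes, which the labels do not give for these fish.

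The peptide transporter genes, which load class I molecules, were low. tap2a had 15, 19 and 16 counts at 0 hpl, 31.26, 53 and 34 at 8 hpl and 39.42, 127.95 and 17 at 16 hpl. On the CPM scale the lesioned libraries all lay above those of 0 hpl, by 0.91 at 8 hpl and 1.83 at 16 hpl on the log2 scale (adjusted p = 0.515 and 0.162). tap1 had 21 to 29 counts at 0 hpl and 37 to 69 at 16 hpl, or log2 differences of −0.17 at 8 hpl and 1.08 at 16 hpl (adjusted p = 0.893 and 0.224).

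**Figure D4:**
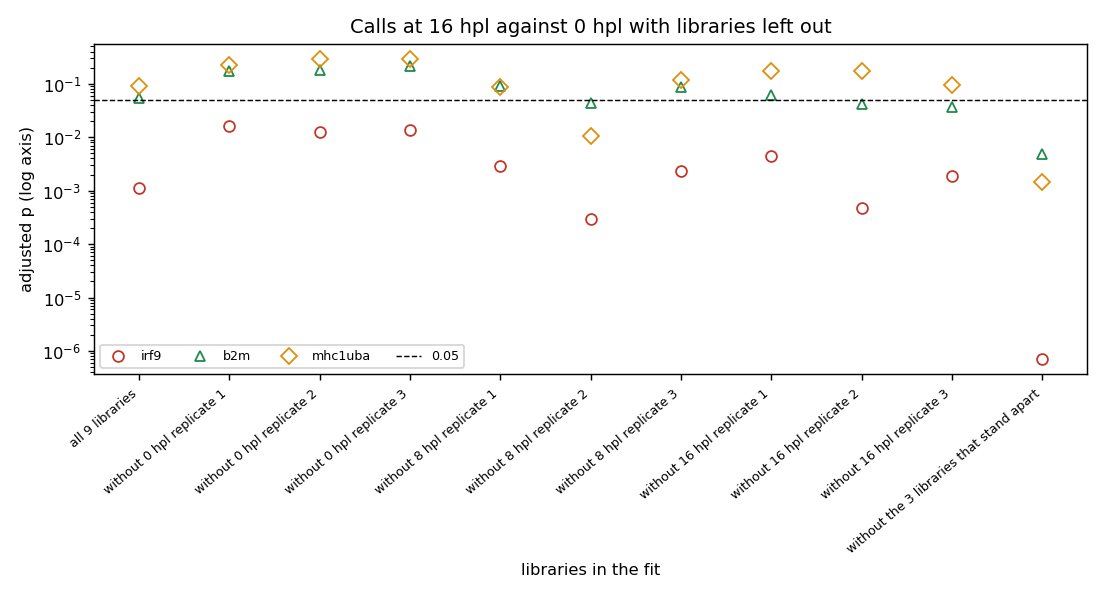
Adjusted p (log axis) of irf9, b2m and mhc1uba at 16 hpl against 0 hpl in the fit of all 9 libraries, in the 9 fits without 1 library and without the 3 libraries that stand apart. The dashed line is 0.05, and the 3 libraries were chosen after seeing the data. irf9 stays below it throughout, b2m and mhc1uba cross it.

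Between 8 and 16 hpl 0 of 13 members rose or fell by edgeR, beside 0.0604% and 0.0403% of all genes tested. By an unadjusted p under 0.05, 4 were higher and 0 lower, beside 6.64% and 7% of all genes, and DESeq2 called 2 higher, irf9 and mhc1uba, beside 1.52%. Every 16 hpl library was above every 8 hpl library for 3 of 13 members, irf9, mhc1uba and b2m, beside 8.49% of all genes, and 0 were separated downward, beside 8.31%. Between the times these 3 genes differed by 1.34, 1.43 and 1.08 on the log2 scale (adjusted p = 0.109, 0.136 and 0.275). mhc1uba passed without 8 hpl replicate 2 (2.01, adjusted p = 0.00513). The median over members was 0.51, beside 0.01 over all genes, and it was 0.25 without 16 hpl replicate 2 and 0.78 without 16 hpl replicate 1.

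Levels per transcript length put the genes in another order than the changes. On the scale of the authors' FPKM (fragments scaled to transcript length and library size), irf1b was the highest member at 0 hpl at 42.9 ± 3.86 (SD, n = 3), followed by irf2a at 23.1 ± 3.71, mhc1uba at 22.5 ± 4.03, b2m at 20.1 ± 5.61 and isg20 at 19.2 ± 2.18. The libraries of the latter 4 overlapped in range. irf9 stood at 9.34 ± 1.4 FPKM at 0 hpl, 36.1 ± 11.7 at 8 hpl and 87.1 ± 35.3 at 16 hpl, by then the highest mean of the list. b2m at 69.9 ± 42.6 and mhc1uba at 57.6 ± 12.1 FPKM came next, and their libraries overlapped those of irf9. tyk2 and irf2 were the lowest, at 0.963 ± 0.203 and 0.944 ± 0.42 FPKM at 0 hpl.

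A wider list of interferon pathway genes, without the members, held few calls. Of 130 symbols, matching gave 77 further genes, 60 of which were tested. At 8 hpl 2 rose (3.33%, beside 1.9% of all genes) and 0 fell, and at 16 hpl 3 rose (5%, beside 1.45%) and 0 fell. DESeq2 called 3 higher at 8 hpl (5%, beside 4.31% of the genes to which it gave an adjusted p) and 5 at 16 hpl (8.33%, beside 3.65%). It called 1 lower at each time. In either direction it called 6.71% and 5.74% of all such genes. The libraries were separated upward for 9 genes and downward for 5 at 8 hpl (15% and 8.33%, beside 13.9% and 12.9% of all genes), and for 10 and 6 at 16 hpl (16.7% and 10%, beside 10.8% and 10.4%). The medians were 0 and 0.25, beside 0.02 and 0.03 over all genes. jak1 (ENSDARG00000020625), the kinase of both interferon receptor classes and of interleukin-6 family receptors, had 31.1, 30.2 and 33.9 CPM at 0 hpl, 104, 73.8 and 113 CPM at 8 hpl and 143, 370 and 165 CPM at 16 hpl. Every group was above the one before. Its log2 fold changes were 1.61 ± 0.34 (adjusted p = 0.0365) and 2.83 ± 0.36 (adjusted p = 0.00442). The 16 hpl call held in all 9 fits without 1 library, and the 8 hpl call ended in the 5 that lack a 0 hpl library or replicate 1 or 3 of 8 hpl (adjusted p 0.124 to 0.165).

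The other calls in that list were of low genes. lgals9l1, for a galectin, had 0.344, 0.77 and 0.576 CPM at 0 hpl, 4.15, 2.12 and 3.88 CPM at 8 hpl and 3.27, 9.34 and 4.22 CPM at 16 hpl, and rose by 2.56 (adjusted p = 0.0319) and 3.29 (adjusted p = 0.013) on the log2 scale. Both calls ended without any 1 of the 0 hpl replicates (adjusted p 0.0513 to 0.152), and the 8 hpl call also when replicate 1 or 3 of 8 hpl was left out (adjusted p = 0.131 and 0.121). The filter kept lgals9l1 only with its lesioned libraries counted. psmb11, listed as a proteasome beta subunit gene, had 1.03, 0.715 and 0.802 CPM at 0 hpl and 4.2, 5.16 and 2.16 CPM at 16 hpl, a log2 fold change of 2.18 (adjusted p = 0.0428). That call ended in 7 of the 9 fits without 1 library (adjusted p 0.0506 to 0.179), all but those lacking replicate 2 of 8 hpl or replicate 3 of 16 hpl. Among 15 tested effector genes of that list, log2 fold changes were positive for 6 and negative for 9 at 8 hpl. At 16 hpl 7 were positive and 8 negative. By then 2 were separated upward and 3 downward (13.3% and 20%, beside 10.8% and 10.4% of all genes). The 2 upward were lgals9l1 and gbp3, the latter at 1.23 (adjusted p = 0.326). The 3 downward were adar, uba7 and the Mx gene mxg, the last at −1.34 (adjusted p = 0.253). DESeq2 called 2 of the 15 higher at 8 hpl, lgals9l1 and epsti1, and 1 at 16 hpl, lgals9l1. These are 13.3% and 6.67%, beside 4.31% and 3.65% of the genes to which it gave an adjusted p. It called 0 of the 15 lower. epsti1 had 0.802 to 1.88 CPM at 0 hpl, 1.89 to 11.1 at 8 hpl and 1.04 to 4.07 at 16 hpl.

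The receptor and sensing genes that could be tested showed no call. The type I interferon genes ifnphi1, ifnphi2 and ifnphi3 had 20, 0 and 13 counts over all 9 libraries together, and were not tested. The ligand symbols ifnphi4, ifng1-1 and ifng1-2 could not be matched to a row and are not analysed here. The same holds for the receptor symbols crfb5, crfb13 and crfb17 and for some sensing symbols, ddx58 and tbk1 among them. Of the receptor genes, 5 were tested and 0 were called at either time by edgeR or DESeq2. An unadjusted p under 0.05 was reached by 0 at 8 hpl. At 16 hpl it was reached by 1, il10rb, which was higher, beside 8.71% of all genes. The receptor genes crfb1 and crfb2 stood 0.03 and 0.04 above 0 hpl on the log2 scale at 16 hpl (adjusted p = 0.974 and 0.972), and ifngr1, for an interferon gamma receptor chain, 0.24 (adjusted p = 0.81). At 8 hpl ifngr1 was the 1 receptor gene of 5 separated upward (20%, beside 13.9% of all genes), at 0.68 (adjusted p = 0.332), and 0 were separated downward. At 16 hpl 0 were separated in either direction, beside 10.8% and 10.4%. Among 9 tested sensing genes 0 passed, and mavs, the adaptor of RNA sensors, had 0.13 (adjusted p = 0.874). By an unadjusted p under 0.05, 1 sensing gene was higher at 8 hpl and 2 at 16 hpl, beside 9.3% and 8.71% of all genes. DESeq2 called 0 sensing genes. Feedback genes were low or not called, usp18 with 0.61 (adjusted p = 0.674) and socs1b with 2.29 (adjusted p = 0.428).

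Of 19 further antigen presentation genes tested, 0 were called at 8 hpl by edgeR, and at 16 hpl psmb11 was the one called (5.26%, beside 1.45% of all genes). Their log2 fold changes were positive for 4 and negative for 15 at 8 hpl, with a median of −0.17, and positive for 14 and negative for 5 at 16 hpl, with a median of 0.26, beside 0.02 and 0.03 over all genes. By an unadjusted p under 0.05, 0 were higher and 2 lower at 8 hpl, beside 9.3% and 6.9% of all genes. At 16 hpl 6 were higher and 2 lower by that rule, beside 8.71% and 6.07%. DESeq2 called 1 lower at 8 hpl, cd74a, for the invariant chain of class II molecules. At 16 hpl it called cd74a lower and psmb11 and psme1 higher (10.5% higher, beside 3.65% of the genes to which it gave an adjusted p). psme1 is a proteasome activator gene. The libraries of psme1 spanned 2.28 to 2.46 CPM at 0 hpl and 2.16 to 21.6 CPM at 16 hpl, so the groups overlapped. Of the 19 genes, 4 were separated upward and 3 downward at 16 hpl (21.1% and 15.8%, beside 10.8% and 10.4% of all genes). The 4 upward were psmb11, tap2t, tapbp and erap1b. The 3 downward were cd74a, cd74b and mhc2dab, all of class II presentation. b2ml, related to b2m, stood at 139 to 171 CPM at 0 hpl and 163 to 234 CPM at 16 hpl. The class I gene mhc1zaa stood at 60 to 76 and 63 to 83.1 CPM. For both of these genes the 0 and 16 hpl groups overlapped.

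One library carried much of the height of the list. 16 hpl replicate 2 was the highest of all 9 libraries for 8 of the 13 members (61.5%), beside 23.7% of all genes tested, and the highest 16 hpl library for 9, beside 43.7%. It was the lowest 16 hpl library for 1, irf3, beside 38.4%. 8 hpl replicate 2, the 8 hpl library that does not stand apart, was the lowest of its group for irf2, irf2a, irf7, irf9, isg15 and b2m and the highest for stat2, irf1b, irf3, irf8, mhc1uba and tyk2. These counts of 6 and 6 lie beside 43.1% and 41.5% of all genes.

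Markers of blood and immune cells were low and partly moved with the time points. Of 20 microglia and macrophage symbols 15 were matched, and their summed level was 319 to 685 CPM at 0 hpl, 886 to 1020 at 8 hpl and 1210 to 1430 at 16 hpl. Nearly all of it was apoeb and aif1l, and the other 13 genes summed to 10.7 to 12.3, 12.3 to 15.9 and 12 to 19.8 CPM, the highest value in 16 hpl replicate 2. 0 of 9 tested markers of this list were called in either direction at either time. At each time 4 of the 9 were separated upward (44.4%, beside 13.9% and 10.8% of all genes). None was separated downward, beside 12.9% and 10.4%. The medians of the 9 were 0.29 and 0.64, beside 0.02 and 0.03 over all genes. By an unadjusted p under 0.05, 1 and 2 were higher and 0 lower, where 9.3% and 8.71% of all genes were higher. DESeq2 called 0 and 2 higher, beside 4.31% and 3.65% of the genes to which it gave an adjusted p. The complement genes c1qa, c1qb and c1qc stayed at or under 0.474 CPM in every library. 6 neutrophil markers summed to 4.83 to 5.38 CPM at 0 hpl, 11.6 to 16.9 at 8 hpl and 10.1 to 19.2 at 16 hpl. The largest of them in every library was nccrp1, at 2.58 to 3.04, 5.47 to 11 and 4.48 to 13 CPM. npsn, at 0.491 to 0.916, 0.644 to 1.05 and 0.48 to 1.28 CPM, overlapped between groups. Of 5 tested, 1, lyz, rose at 16 hpl (20%, beside 1.45% of all genes). DESeq2 called 2 of the 5 higher at each time (40%, beside 4.31% and 3.65%). At 8 hpl 3 were separated upward and at 16 hpl 2 (60% and 40%, beside 13.9% and 10.8% of all genes), and 0 downward. T and NK cell markers summed to at most 4.32 CPM and B cell markers to at most 4.62 CPM, with cd8a and ighm at 0 in every library. The part of these cells in the results was not tested.

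The authors' deposited table called more members than the fit used here. Its adjusted p was under 0.05 for 5 members higher and 2 lower of 13 at 8 hpl, where 19.7% and 18% of its genes were, and for 5 higher and 0 lower at 16 hpl, where 6.86% and 6.3% were. In the authors' deposited table irf9 stood at log2 fold changes of 1.91 and 2.84, each with an adjusted p under 0.05. In the same authors' deposited table stat2, irf2a, b2m and mhc1uba were also called at 16 hpl, with 0.96, 0.77, 1.16 and 1.27. The members lower at 8 hpl in the authors' deposited table were irf8, at −1.01, and mhc1uba, at −0.66. Fitted here without 8 hpl replicate 2, these genes had −1.16 (adjusted p = 0.12) and −0.67 (adjusted p = 0.147), against −0.43 and −0.08 with it. Besides irf9, the members higher at 8 hpl in the authors' deposited table were stat2, irf2a, isg15 and b2m. For isg15 that table gave 2.07 at 8 hpl, called, and 0.01 at 16 hpl, not called. The values here were 0.94 and 1.45, neither of them called.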

How the data were processed

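RNA of 9 libraries was analysed, 3 each at 0, 8 and 16 hpl, sorted, extracted with TRIzol LS (RNA integrity number over 7.0) and read from a single end after stranded library construction, per the labels' protocols. The submitters' processing notes name the build Zv9, RSEM 1.2.22 and Bowtie2 2.2.6, the trimming and quality tools cutadapt 1.4.2, Trim Galore 0.2.7 and FastQC 0.10.1, and the packages limma 3.24.15 and edgeR 3.10.2. Neither the order of these tools nor the annotation release nor any use of strand in counting is given in those notes. The authors deposited RSEM expected counts without normalization, and FPKM values called normalized by the table's name. The authors' deposited table of comparisons holds log2 fold changes and adjusted p-values, with limma column names per the file headers and a model not given in the sources used here.

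Expected counts were rounded and fitted in edgeR 4.0.16 (R 4.3.3), with TMM factors of 0.873 to 1.07, genes kept by filterByExpr, robust quasi-likelihood F tests and 6 residual degrees of freedom. Of 33737 genes 19875 were tested, with Benjamini-Hochberg adjustment over all of them. Standard errors divide the size of a log2 fold change by the root of its F value. CPM are unrounded counts over TMM-scaled library sizes. Alternatives were RLE factors, DESeq2 1.42.0, no filter, a filter of at least 1 CPM in 3 libraries, fits of 6 libraries, leaving out libraries and a replicate block.

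Members and lists were chosen with earlier results of these data known. Genes are given in full where they pass in any comparison or over the 3 time points, where groups do not overlap with 0 hpl at a log2 fold change of at least 1, or where they are among the 5 highest by FPKM. Sequences and coordinates were not used here. Some genes of the interferon list are not reported here, and counts of members leave them out.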

Additional observations from a re-analysis of the deposited data

How the results depend on the processing

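Counts of calls moved more than directions. Over all genes the counts were 563, 415 and 20 at 8 hpl against 0 hpl, 16 hpl against 0 hpl and 16 hpl against 8 hpl. They were 1372, 1174 and 655 with DESeq2, 147, 168 and 0 with the replicate block, and 1035, 1586 and 98 without the 3 libraries that stand apart, a choice made after seeing the data. That choice leaves 8 hpl with 1 library, assumed to vary like the other groups, so its values in comparisons with 8 hpl describe that library. Fits of 6 libraries gave 1008 genes at 8 hpl against 0 hpl and 0 at 16 hpl against 8 hpl, and no filter gave 44 in the latter. Leaving out 1 library gave 95 to 1320, 103 to 661 and 0 to 677 genes. Members called in these comparisons, 1, 1 and 0, were 0, 1 and 0 with the replicate block, and 4 and 2 in the latter 2 with DESeq2. At 16 hpl against 0 hpl they were 3 without the 3 libraries, and 2 with 6 libraries (adding mhc1uba) and with no filter (adding b2m). In the 3 comparisons they were 0 to 1, 1 to 3 and 0 to 1 without 1 library. Other pathway genes called, 2, 3 and 0, were 4, 6 and 5 with DESeq2, 0, 1 and 0 with the replicate block, and 0 to 5, 1 to 3 and 0 to 2 without 1 library. The median of the members was 0.61 at 16 hpl without the 3 libraries, and 0.08 to 0.39, 0.6 to 1.14 and 0.25 to 0.78 without 1 library.

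Among the genes given in full, signs reversed for uncalled values alone. Without 1 library irf1b ranged from −0.25 to 0.07 at 16 against 0 hpl and from −0.04 to 0.28 at 16 against 8 hpl, with −0.11 in the latter without the 3 libraries. At 8 hpl irf2 ranged from −0.06 to 0.93 without 1 library and had −0.67 without the 3, from 1 library. mhc1uba at 8 hpl ranged from −0.67 to 0.19, positive when 0 hpl replicate 1, or replicate 1 or 3 of 8 hpl, was left out, and had 0.65 without the 3. The cause was not tested. Same-numbered libraries showed no clear pairing. Of 9 such pairs 1 had deviations correlated over 0.1 (range −0.43 to 0.12), and 1 of 9 libraries correlated best with its own number. The split of the 3 libraries that stand apart enters these correlations, so a weaker pairing could be hidden. With the block the irf9 call at 8 hpl was lost (adjusted p = 0.0722). Counts under about 20 in a library limit isg15, irf2 and the Mx and Ifit genes.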
